A study of Mus musculus with 16 samples.

Results

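Amino acids enter and leave macrophages through solute carrier (SLC) proteins of a few families, and 10 of their genes are described here: Slc7a5, Slc3a2, Slc7a11, Slc7a2, Slc7a7, Slc7a8, Slc38a1, Slc38a2, Slc1a5 and Slc1a4. They were chosen by symbol as transporters of the SLC1, SLC3, SLC7 and SLC38 families, and are not all the genes of these families. The choice was made with earlier results of these data known. All 10 were among the 24421 symbols of the count table, and all 10 were among the 13649 genes with enough reads to be tested.

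Many SLC7 proteins are light chains that need the heavy chain CD98, the product of Slc3a2, to reach the cell surface, where the pair exchanges 1 amino acid for another. SLC38 proteins and the products of Slc1a4 and Slc1a5 instead use the sodium gradient or exchange to move small neutral amino acids such as glutamine, alanine and serine. In macrophages these routes supply arginine for nitric oxide synthase and arginase, cystine for glutathione, and glutamine as a fuel.

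RNA was sequenced from F4/80-positive macrophages sorted out of mouse muscle, in 4 groups of 4 libraries. The groups were WT mice with normal muscle (libraries 2, 3, 5 and 6), GLUD1 KO mice with normal muscle (libraries 1, 2, 3 and 5), and WT and KO mice with muscle injected with CTX (libraries 1 to 4 each). CTX is given only as that abbreviation, and per the series' design text the cells were taken at baseline and when muscle damage peaked. Glud1 encodes the mitochondrial enzyme that turns glutamate into 2-oxoglutarate. The part of Glud1 that was deleted, any promoter or Cre line used for it, the ages and whether each library came from its own mouse are not given in the sources used here. The p-values therefore describe the spread among libraries, which may be technical. In each normal group it cannot be technical alone, since libraries of both sexes (given below) came from more than 1 mouse.

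Levels are CPM, which are read counts set to a common library size with TMM factors, and every adjusted p below is from edgeR's quasi-likelihood test with Benjamini-Hochberg adjustment over all 13649 genes at a threshold of 0.05. "Rose" and "fell" are used for genes that passed it. Errors after ± are SDs over 4 libraries, and SE is that of a log2 fold change.

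Library totals ran from 17051892 to 23097420 counts. All 10 macrophage markers checked were present in every library, among them Adgre1, which encodes F4/80 (group means of 539 to 892 CPM), and Cd68 (582 to 1624 CPM). Means of both, and of Fcgr1, Itgam, Lyz2 and Cd14, were higher in CTX than in normal muscle of each genotype. Those of Csf1r, Mertk, C1qa and C1qb were lower. For example, Csf1r in WT averaged 1740 CPM in CTX against 3150 CPM in normal muscle, and C1qa 392 against 1136 CPM. Summed over the 10 markers, the means were 18686 CPM in WT normal and 33593 CPM in WT CTX muscle. In KO they were 15134.5 and 24422.5 CPM. Lyz2 and Cd14 were the largest parts of the CTX sums, at 14887 and 10156.5 CPM in WT and 8018 and 7974 CPM in KO. Between the CTX groups, means of Lyz2, Cd14, Csf1r and Itgam were lower in KO than in WT. Those of Adgre1, Cd68, Fcgr1, Mertk, C1qa and C1qb were higher in KO. By Xist and Y-linked genes, 3 libraries came from female mice (WT normal 5 and 6 and KO normal 5) and all others from males. Summed neutrophil markers reached 4349 CPM in WT normal library 2 and 6387 CPM in KO normal library 2, against 244 to 1988 CPM in the other normal and 209 to 1183 CPM in the CTX libraries. Summed markers of T and NK cells, B cells, dendritic cells, endothelium, fibroblasts, mural cells and muscle fibres were lower in every CTX library than in any normal one, for example 290 to 628 against 29.2 to 50.2 CPM for the 6 dendritic cell markers. None of these markers was at 0 in every library of a group, and their part in the injury results below was not tested.

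Glud1 itself lay at 258, 292, 253 and 218 CPM in WT normal libraries and at 239.9, 238, 272 and 209.7 CPM in KO normal libraries. In CTX muscle it lay at 391, 386, 347 and 366 CPM in WT and at 327, 334, 351 and 342 CPM in KO. The genotypes overlapped in both states, with log2 differences of -0.09 (adjusted p = 0.991) and -0.14 (adjusted p = 0.936). Reads were summed over the gene and the deleted part is unknown, so these values are no check of the genotype labels.

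The make-up of the transporter pool differed between normal and CTX-injected muscle. Dividing CPM by the merged exon length of each gene (GENCODE M21, in kb) allows levels of different genes to be compared. The order of close neighbours depends on the length used, since merged exons are longer than any one transcript for most of these genes. With the longest transcript instead, a setting added once the data had been seen, Slc38a1 (14.0 ± 4.30 CPM per kb) stood above Slc7a5 (12.4 ± 1.81) and Slc1a5 (42.1 ± 11.7) above Slc7a8 (35.5 ± 7.98) in WT normal muscle. On the merged exon scale the 10 genes summed to 257 ± 55.9 CPM per kb in WT normal, 215 ± 55.0 in KO normal, 898 ± 81.6 in WT CTX and 769 ± 36.0 in KO CTX muscle. The lowest CTX library (722) stood above the highest normal one (315).

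In normal muscle of both genotypes Slc3a2 was first, at 106 ± 28.3 CPM per kb in WT and 84.8 ± 30.5 in KO. Slc38a2 came next, at 59.8 ± 14.5 and 49.0 ± 12.1 CPM per kb, and its libraries overlapped those of Slc3a2. Slc7a8 (29.0 ± 6.51 in WT) and Slc1a5 (28.3 ± 7.89) followed and overlapped, as did Slc7a7 (12.4 ± 1.30) and Slc7a5 (11.8 ± 1.72). Slc38a1 was at 5.90 ± 1.81 and Slc7a11 at 2.89 ± 2.39 CPM per kb in WT. Slc1a4 and Slc7a2 were lowest, at 0.420 ± 0.160 and 0.291 ± 0.0708 CPM per kb in WT, and these overlapped in WT but not in KO.

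In CTX muscle Slc7a8 stood beside Slc3a2, at 269.5 ± 21.8 against 283 ± 20.5 CPM per kb in WT and 239 ± 6.75 against 258 ± 20.8 in KO, and each pair overlapped. Slc7a11 stood beside Slc38a2, at 101 ± 23.4 against 105 ± 13.2 CPM per kb in WT and 64.6 ± 11.7 against 87.2 ± 8.25 in KO, again with overlap. Slc7a5, Slc7a7 and Slc1a5 formed a group between 32.8 and 39.5 CPM per kb whose neighbours overlapped. Slc1a4 was last, at 0.222 ± 0.108 CPM per kb in WT and 0.365 ± 0.0711 in KO.

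As a share of the summed level, Slc7a8 held 11.3% ± 1.18 in WT normal and 30.0% ± 1.12 in WT CTX muscle, and 10.7% ± 1.64 and 31.1% ± 0.852 in KO. Slc7a11 held 1.04% ± 0.679 and 11.2% ± 1.72 in WT, and 0.827% ± 0.333 and 8.37% ± 1.24 in KO. The shares of Slc38a2 went the other way, from 23.2% ± 1.30 to 11.7% ± 0.617 in WT and from 22.9% ± 0.895 to 11.4% ± 1.22 in KO. By longest transcript the WT share of Slc7a8 was 10.3% ± 1.16 in normal and 27.8% ± 1.12 in CTX muscle. These shares were described and not tested, and they need no scaling between libraries.

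**Figure D1:**
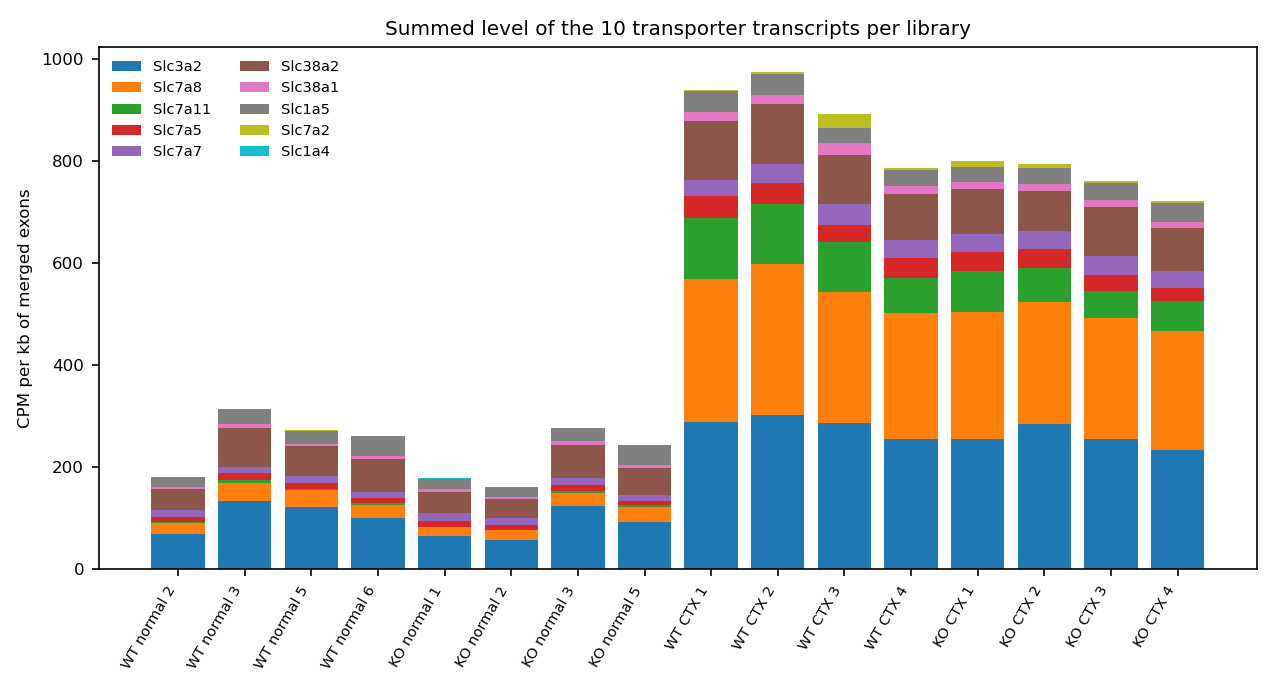
Stacked bars give the level of each of the 10 transporter transcripts in CPM per kb of merged exons in each of the 16 libraries. The summed level is 161 to 315 in the 8 normal libraries and 722 to 974 in the 8 CTX libraries, where the Slc7a8 and Slc7a11 segments are wider.

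After CTX injection most of the 10 genes were higher in both genotypes. In WT 8 rose and 1 (Slc1a4) fell, where 72.7% of all genes were called, 33.3% higher and 39.4% lower. In KO 8 rose and none fell, where 73.6% were called, 33.3% higher and 40.2% lower. With so many genes called, the count by itself says little about these genes. A rise of at least 2-fold was called for 7 of the 10 in each genotype, beside 13% of all genes in WT and 12.7% in KO. With library totals as the only scaling, 4 members in WT and 5 in KO rose at least 2-fold, against 4.52% and 4.72% of all genes. Slc7a11, Slc7a2, Slc7a5 and Slc7a8 were among them in both genotypes. The median log2 change of the 10 was 1.57 in WT and 1.48 in KO, beside -0.15 and -0.16 over all genes tested. Because the members were chosen with earlier results of these data known, their excess over all genes is no independent result about these families. Groups did not overlap for 8 of the 10 in each genotype, beside 65.5% of genes in WT and 66.8% in KO. In bulk RNA, a change in the make-up of the sorted cells and a change in RNA per cell cannot be told apart.

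The scaling matters for the smaller changes. With library totals as the only scaling, the median log2 change over all genes moved from -0.15 to -0.77 in WT and from -0.16 to -0.77 in KO. The count of members called higher then went from 8 to 7 in each genotype, Slc38a2 being the one lost, beside 14.2% of all genes called higher in WT and 14.1% in KO. Slc3a2, Slc7a7 and Slc38a1 were still called, at log2 0.81, 0.91 and 0.99 in WT and 1.01, 0.75 and 0.73 in KO. Without both normal libraries numbered 2, which had the most neutrophil marker RNA, 8 members rose in each genotype, and so they did without both numbered 3. These settings were added once the data had been seen.

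**Figure D2:**
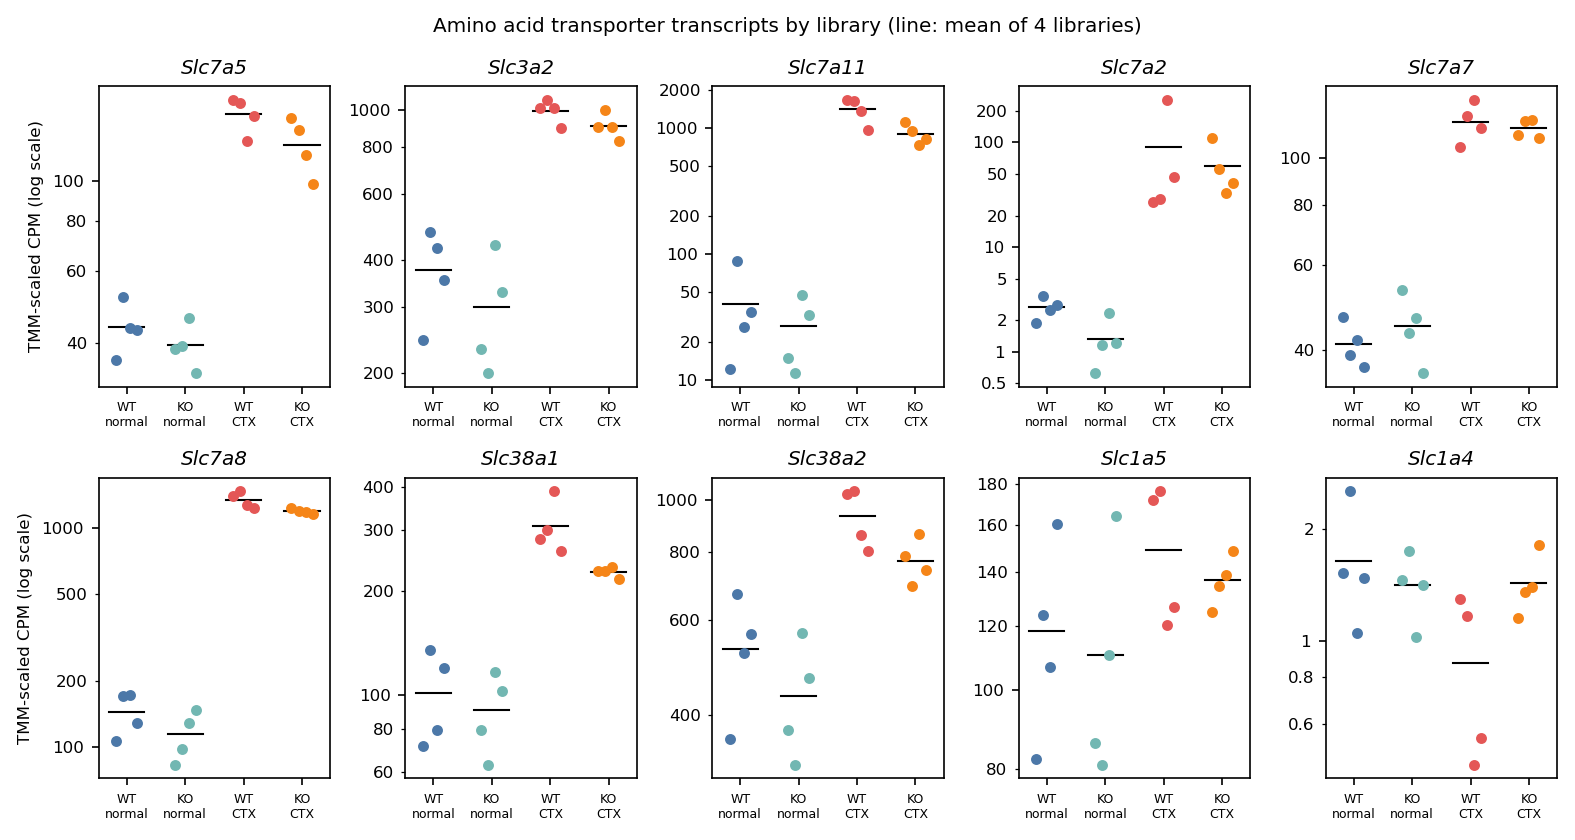
Each panel shows 1 gene, with TMM-scaled CPM on a log axis against the 4 groups. Points are libraries and lines are means of 4. For 8 genes every CTX library lies above every normal library, while Slc1a5 and Slc1a4 overlap.

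Slc3a2 (ENSMUSG00000010095, chr19:8706882-8723369 in mm10, minus strand) encodes CD98, the heavy chain shared by the exchangers. It was at 245, 473, 429.5 and 354 CPM in WT normal and at 1015, 1068, 1014 and 897 CPM in WT CTX libraries. In KO it was at 231, 199, 438 and 329 CPM in normal and at 903, 1005, 902 and 827 CPM in CTX libraries. The lowest CTX library was above the highest normal one in each genotype. Slc3a2 rose by log2 1.41 in WT (SE 0.22, adjusted p = 3.34e-05) and by 1.60 in KO (SE 0.22, adjusted p = 9.45e-06), about 2.66-fold and 3.04-fold.

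Slc7a5 (ENSMUSG00000040010, chr8:121881150-121907694, minus strand) encodes LAT1, which brings in leucine and other large neutral amino acids in exchange for glutamine. Its levels were 36.2, 51.8, 43.6 and 43.1 CPM in WT normal and 159, 156, 126 and 145 CPM in WT CTX libraries. KO normal libraries held 38.6, 39.4, 46.1 and 33.7 CPM, and KO CTX libraries 143, 134, 116 and 98.4 CPM. The groups were well apart and the spread small, so the rise of log2 1.74 in WT (SE 0.14, adjusted p = 2.49e-08) was among the more precise. In KO the rise was 1.64 (SE 0.14, adjusted p = 4.75e-08).

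Slc7a8 (ENSMUSG00000022180, chr14:54722209-54781946, minus strand) encodes LAT2, an exchanger of neutral amino acids of broad range. Normal libraries held 106, 172, 172 and 129.6 CPM in WT and 83.3, 97.9, 129 and 148 CPM in KO. CTX libraries held 1401, 1475, 1282 and 1237 CPM in WT and 1242, 1194, 1187 and 1161 CPM in KO. No gene of the 10 had a smaller spread within a group than Slc7a8 in KO CTX muscle, where the coefficient of variation was 2.83%. It rose by log2 3.22 in WT (SE 0.19, adjusted p = 1.45e-09) and by 3.39 in KO (SE 0.19, adjusted p = 1.20e-09), 9.30-fold and 10.4-fold.

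Slc7a7 (ENSMUSG00000000958, chr14:54369442-54417780, minus strand) encodes y+LAT1, which passes arginine and lysine out of the cell in exchange for neutral amino acids and sodium. It lay at 46.9, 39.1, 41.9 and 36.9 CPM in WT normal and at 106, 123, 132 and 116 CPM in WT CTX libraries. In KO it lay at 53.5, 43.4, 46.8 and 35.8 CPM in normal and at 112, 119.7, 120.2 and 110.0 CPM in CTX libraries. Its groups were compact and did not overlap, and it rose by log2 1.53 in WT (SE 0.12, adjusted p = 1.62e-08) and by 1.36 in KO (SE 0.12, adjusted p = 5.07e-08). Exons of Oxa1l on the opposite strand cover 6.998% of its exon bases, and the library kit keeps no strand, so reads from those 232 bases cannot be assigned.

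Slc7a11 (ENSMUSG00000027737, chr3:49892526-50443614, minus strand) encodes xCT, the light chain that brings in cystine for glutathione synthesis and lets glutamate out. Its transcript varied most widely in normal muscle, at 12.3, 88.2, 26.1 and 34.6 CPM in WT and 14.97, 11.3, 47.4 and 32.9 CPM in KO. In CTX muscle it reached 1672, 1634, 1360.2 and 967 CPM in WT and 1107, 939.7, 734 and 816 CPM in KO. The lowest CTX library stood at 8.32 times the highest normal one. Slc7a11 rose by log2 5.13 in WT (SE 0.57, adjusted p = 8.46e-07) and by 5.08 in KO (SE 0.57, adjusted p = 9.22e-07), 35.0-fold and 33.8-fold, and ranked 26 and 25 of 13649 genes by log2 change. Without WT normal library 3 its WT change was 5.85, which is over 1.5 times the fold.

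The promoter of Slc7a11 is shown because it holds a motif linked to amino acid supply. TGATGNAA is the core of the C/EBP-ATF response element, through which the transcription factor ATF4 acts on many amino acid transporter genes when amino acids run short. It was searched on both strands in the 250 bases before the start of each RefSeq gene (GRCm38.p6), and 6 of the 10 members had an entry. The motif occurred in 3.45% of 32817 promoters of that length, and 13 of them (0.0396%) had at least 2 matches, that of Slc7a11 included. Its window, chr3:50443614-50443863 on the minus strand, reads as follows, with both matches in capitals, the second being the reverse complement TTGCATCA:
Slc7a11: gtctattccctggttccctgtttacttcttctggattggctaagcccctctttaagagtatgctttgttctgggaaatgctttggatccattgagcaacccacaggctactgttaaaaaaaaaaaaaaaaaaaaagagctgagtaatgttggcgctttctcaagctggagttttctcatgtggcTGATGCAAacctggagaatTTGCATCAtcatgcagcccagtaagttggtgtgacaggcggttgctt

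The matches end 59 and 40 bases before the start. Among the other members, the first Slc7a7 promoter had a match from 141 to 134 bases before its start, and Slc1a4 had one that spans the start and so lies partly outside the searched window. For comparison, each match is given in capitals within 26 bases of its surroundings, Slc7a7 at chr14:54418078-54418085 and Slc1a4 at chr11:20332710-20332717:
Slc7a7: gcttgggctTGATGAAAggttcactg
Slc1a4: cctcctgcgTTGCATCAtctccagcc

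Slc7a7 had a further match at its start, TGATGCAA at chr14:54417938-54417945, which the window of its second promoter also holds. Of these 3 genes Slc7a11 and Slc7a7 rose after CTX in both genotypes, and Slc1a4 did not rise in either. Slc3a2, Slc7a8 and Slc38a2, whose windows held no TGATGNAA match, rose in both genotypes too. In the promoter of Slc38a2, TGACGCGGC at chr15:96699747-96699755 matched TGACNNNGC, the core of the antioxidant response element, which occurred in 10.2% of promoters. The AP-1 motif TGANTCA (6.75% of promoters) was in none of the windows of the 6 members, and no matches in these members overlapped. A match describes letters in a window and not a site in use.

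Slc7a2 (ENSMUSG00000031596, chr8:40862396-40922308, plus strand) encodes CAT2, a carrier of arginine and other cationic amino acids that needs no heavy chain. It was close to absent in normal muscle, at 1.87, 3.44, 2.54 and 2.78 CPM in WT (48 to 80 reads) and at 0.627, 1.16, 2.35 and 1.23 CPM in KO (15 to 55 reads). CTX libraries held 26.9, 28.6, 255 and 46.4 CPM in WT and 109, 55.9, 32.7 and 41.2 CPM in KO. WT CTX library 3 stood far above the other 3 of its group. Slc7a2 rose by log2 5.07 in WT (SE 0.72, adjusted p = 1.20e-05) and by 5.48 in KO (SE 0.76, adjusted p = 9.06e-06). Without WT CTX library 3 its WT change was 3.68, still past the threshold. Gm26584 on the opposite strand overlaps 6.95% of its exon bases (635 bases), whose reads cannot be assigned.

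Slc38a2 (ENSMUSG00000022462, chr15:96687392-96699730, minus strand) encodes SNAT2, a sodium-coupled importer of alanine, serine and glutamine. It was at 361, 669, 521 and 566 CPM in WT normal and at 1025, 1037, 861 and 805 CPM in WT CTX libraries. KO normal libraries held 375, 324, 567 and 468 CPM, and KO CTX libraries 788, 692, 863 and 741 CPM. All CTX libraries were above all normal ones, by a modest margin. The rise was log2 0.82 in WT (SE 0.19, adjusted p = 0.00100) and 0.83 in KO (SE 0.19, adjusted p = 0.000854). With library totals as the only scaling it was 0.21 (adjusted p = 0.237) and 0.24 (adjusted p = 0.190), no longer past the threshold.

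Slc38a1 (ENSMUSG00000023169, chr15:96571418-96642913, minus strand) encodes SNAT1, an importer of glutamine. Normal libraries held 71.3, 136, 79.5 and 120.4 CPM in WT and 79.6, 63.1, 117 and 103 CPM in KO. CTX libraries held 283, 300.5, 389.5 and 262 CPM in WT and 229, 229, 235 and 217 CPM in KO. Normal and CTX libraries did not overlap. Slc38a1 rose by log2 1.60 in WT (SE 0.21, adjusted p = 5.73e-06) and by 1.33 in KO (SE 0.21, adjusted p = 3.58e-05).

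Slc1a5 (ENSMUSG00000001918, chr7:16781340-16798274, plus strand) encodes ASCT2, an exchanger known for glutamine uptake. It was at 82.1, 124, 107 and 160.5 CPM in WT normal and at 172, 176, 121 and 127 CPM in WT CTX libraries. In KO it was at 86.0, 80.9, 110.5 and 164 CPM in normal and at 125, 134, 139 and 149 CPM in CTX libraries. The groups overlapped, and the highest normal library of each genotype was from a female mouse (WT 6 and KO 5). The other female library, WT normal 5, held 107 CPM, below the male WT normal library 3 (124 CPM). The part of sex in these levels was not tested. The log2 change was 0.33 in WT (SE 0.22, adjusted p = 0.183) and 0.31 in KO (SE 0.22, adjusted p = 0.215), below the threshold. With male libraries only it was 0.53 (adjusted p = 0.0326) and 0.55 (adjusted p = 0.0121), past it. With limma voom, female libraries included, it was 0.45 (voom adjusted p = 0.0342) in WT and 0.55 (voom adjusted p = 0.00844) in KO, also past it. Leaving out only WT normal library 6 gave 0.50 in WT (adjusted p = 0.0478). Leaving out only KO normal library 5 gave 0.55 in KO (adjusted p = 0.0192). With library totals as the only scaling the sign turned, to -0.28 and -0.29 (adjusted p = 0.237 and 0.223).

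Slc1a4 (ENSMUSG00000020142, chr11:20302180-20332713, minus strand) encodes ASCT1, an exchanger of serine, alanine and cysteine. It was at the low end of detection, with 7 to 59 reads per library. WT normal libraries held 1.52, 2.54, 1.05 and 1.48 CPM, and WT CTX libraries 1.30, 1.17, 0.465 and 0.549 CPM. KO normal libraries held 1.46, 1.75, 1.02 and 1.41 CPM, and KO CTX libraries 1.15, 1.36, 1.40 and 1.82 CPM. In WT it fell by 0.90 on the log2 scale (SE 0.36, adjusted p = 0.0327), although the groups overlapped. The call was lost without WT normal library 3 (log2 -0.63, adjusted p = 0.127), without WT CTX library 3 and without WT CTX library 4. In KO the change was 0.02 (SE 0.35, adjusted p = 0.968).

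**Figure D3:**
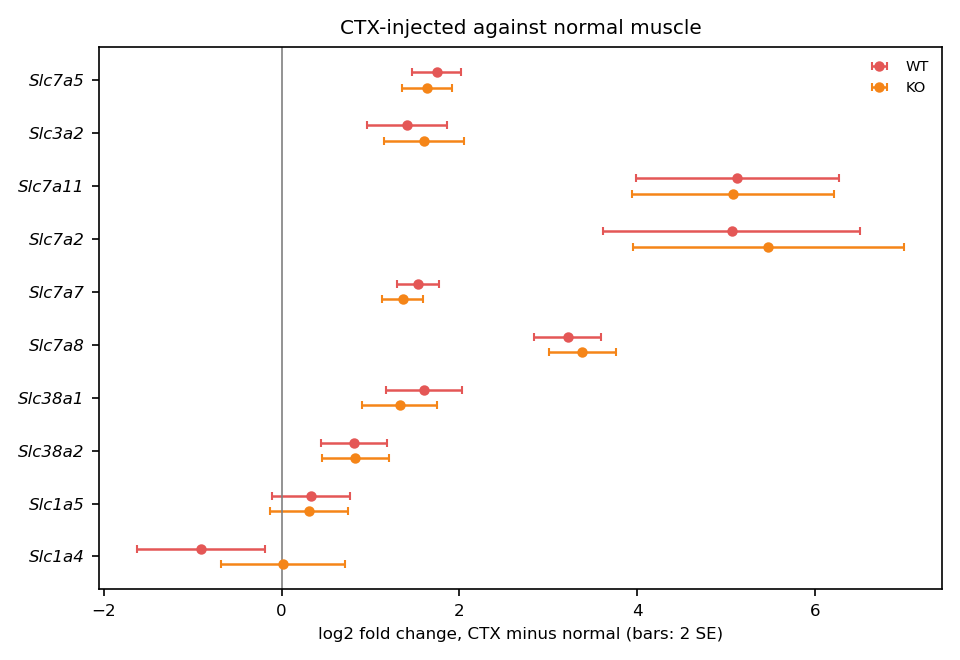
Points are log2 fold changes of CTX against normal muscle for each gene in WT and in KO, and bars span 2 SE on each side. Slc7a11 and Slc7a2 lie at 5.07 to 5.48, Slc7a8 at 3.22 and 3.39 and 5 others at 0.82 to 1.74, while Slc1a5 lies at 0.31 and 0.33 and Slc1a4 at -0.90 in WT and 0.02 in KO.

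The balance of heavy and light chain transcripts was also described. Slc3a2 was set against the sum of its known light chain partners (Slc7a5, Slc7a6, Slc7a7, Slc7a8, Slc7a10 and Slc7a11), all in CPM per kb. The ratio was 1.82 ± 0.240 in WT normal and 1.63 ± 0.399 in KO normal muscle, so heavy chain RNA exceeded the summed light chain RNA there. In CTX muscle it was 0.631 ± 0.0298 in WT and 0.688 ± 0.0493 in KO. The lowest normal library (1.23) stood above the highest CTX library (0.747). By longest transcript the ratio was 1.82 ± 0.247 and 0.613 ± 0.0302 in WT, and 1.62 ± 0.399 and 0.674 ± 0.0493 in KO. Summed light chain RNA was 57.8 ± 9.23 and 450 ± 45.9 CPM per kb in WT normal and CTX muscle, and 51.1 ± 5.95 and 375 ± 22.1 in KO. A ratio within a library does not depend on the scaling between libraries, and transcripts are not surface protein.

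Between KO and WT none of the 10 genes passed the threshold. In normal muscle no member was called, beside 0% of all genes, and every member's adjusted p was 0.991. An unadjusted p under 0.05 was reached by 390 genes (2.86%) and by no member. DESeq2 and limma voom also called no gene there.

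The median log2 difference of KO from WT in normal muscle was -0.25 over the 10 members and 0.00 over all genes. Slc7a2 was lowest at -0.99 (SE 0.77), from 2.66 ± 0.647 CPM in WT to 1.34 ± 0.723 CPM in KO, with overlapping libraries. Slc7a11 was at -0.60 (SE 0.49), a value that turned to 0.14 without WT normal library 3. Slc7a8 was at -0.34 (SE 0.17), Slc3a2 at -0.33 (SE 0.22) and Slc38a2 at -0.29 (SE 0.19). Slc7a7 was at 0.12 (SE 0.11). Groups overlapped for all 10 members, beside 1.08% of genes whose groups did not.

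In CTX muscle no member was called either, beside 0.00733% of genes, a single gene. DESeq2 called 43 genes and limma voom 112, again with no member, and 910 genes (6.67%) had an unadjusted p under 0.05 in edgeR. Slc38a1 came nearest by p and was the 1 member whose groups did not overlap, beside 5.7% of genes. Its WT libraries ran from 262 to 389.5 CPM and its KO libraries from 217 to 235 CPM, a log2 difference of -0.44 (SE 0.21, unadjusted p = 0.0502, adjusted p = 0.748). The lowest WT library was 1.11 times the highest KO library.

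Slc7a11 averaged 1408 ± 325 CPM in WT CTX and 899 ± 162 CPM in KO CTX muscle, and WT library 4 (967 CPM) lay within the KO range, for a log2 difference of -0.65 (SE 0.48, adjusted p = 0.936). Its interval of 2 SE on each side, -1.61 to 0.31, leaves room for a fall of more than 2-fold. The SE came from the fit over all 16 libraries, normal ones included. Coefficients of variation of Slc7a11 were 82.48% (WT) and 62.83% (KO) in normal muscle, against 23.09% (WT) and 18.05% (KO) in CTX muscle. The interval and the adjusted p of Slc7a11 therefore do not describe the spread of the CTX libraries alone. Slc7a5 was at -0.25 (SE 0.13, adjusted p = 0.824). Slc1a4 was at 0.71 (SE 0.37, adjusted p = 0.808) on 7 to 35 reads per library. Slc7a2 was at -0.58 (SE 0.59), and at 0.81 without WT CTX library 3, so its sign rested on that library.

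For the other 5 members intervals of 2 SE on each side are given. Slc7a7 was at -0.05 with an interval of -0.27 to 0.18, Slc7a8 at -0.17 with -0.52 to 0.17, Slc3a2 at -0.14 with -0.57 to 0.30, and Slc1a5 at -0.12 with -0.56 to 0.32. Slc38a2 was at -0.27, with an interval of -0.65 to 0.10. The median of the 10 differences in CTX muscle was -0.21 beside -0.02 over all genes, and none was called. Without WT CTX library 3 the values of Slc7a2 and Slc7a7 turned positive, at 0.81 and 0.0081.

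**Figure D4:**
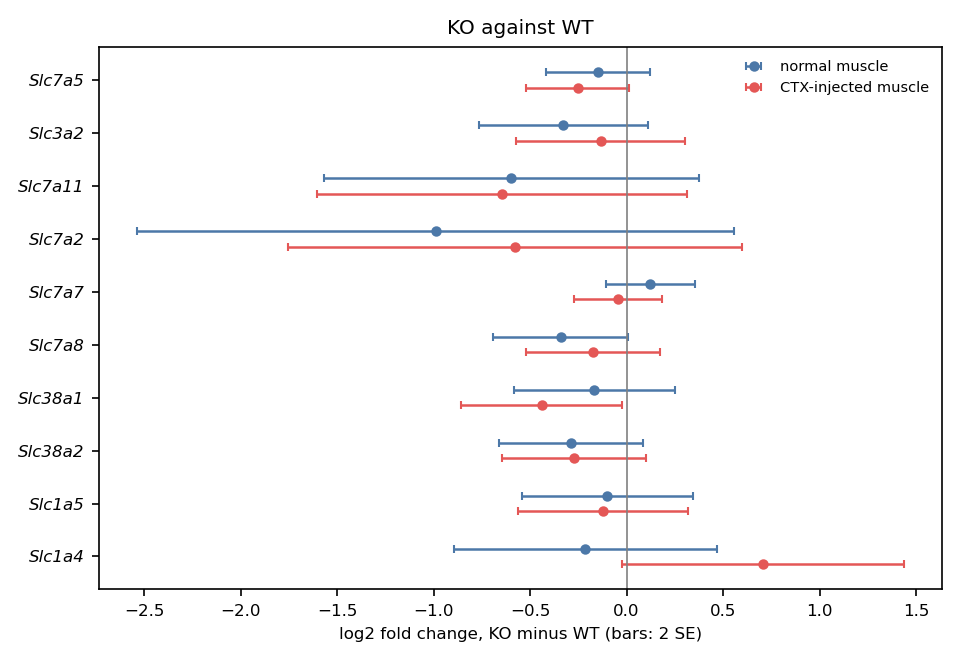
Points are log2 differences of KO from WT for each gene in normal and in CTX-injected muscle, and bars span 2 SE on each side. Most points lie left of 0, and no adjusted p is under 0.748.

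The injury response did not differ detectably between genotypes for any member, as no interaction was called, beside 0% of all genes. With 646 genes (4.73%) at an unadjusted p under 0.05, no member was among them. The interaction is the log2 change after CTX in KO minus that in WT. It was largest for Slc1a4, at 0.92 (SE 0.50, adjusted p = 0.9999), and next for Slc7a2 at 0.41 (SE 0.97). For Slc7a5 it was -0.11 with an interval of -0.49 to 0.28, and for Slc7a7 -0.17 with -0.49 to 0.15. The interval for Slc7a11, -1.41 to 1.31, spans more than a 2-fold difference in either direction. DESeq2 called 48 genes and limma voom 11 in this comparison, no member among them.

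Normal libraries numbered 2, and those numbered 3, often shared high or low values between the genotypes. Deviations from the group mean had the same sign in WT and KO for 8 of the 10 members in the pair numbered 2 and for 8 in that numbered 3, but for 4 in that numbered 5. WT normal library 3 was the highest of its group for 7 of the 10 members and KO normal library 3 for 6, the same 6 genes in both being Slc7a5, Slc3a2, Slc7a11, Slc7a2, Slc38a1 and Slc38a2. WT normal library 2 was lowest for 8 members and KO normal library 2 for 5 (Slc3a2, Slc7a11, Slc38a1, Slc38a2 and Slc1a5). The libraries numbered 2 also had the largest neutrophil marker sums, and the part of that in these levels was not tested. Slc7a7 was an exception, highest in WT library 2 and KO library 1. With the number as a block in normal libraries alone, a setting added once the data had been seen, no member was called for genotype.

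**Figure D5:**
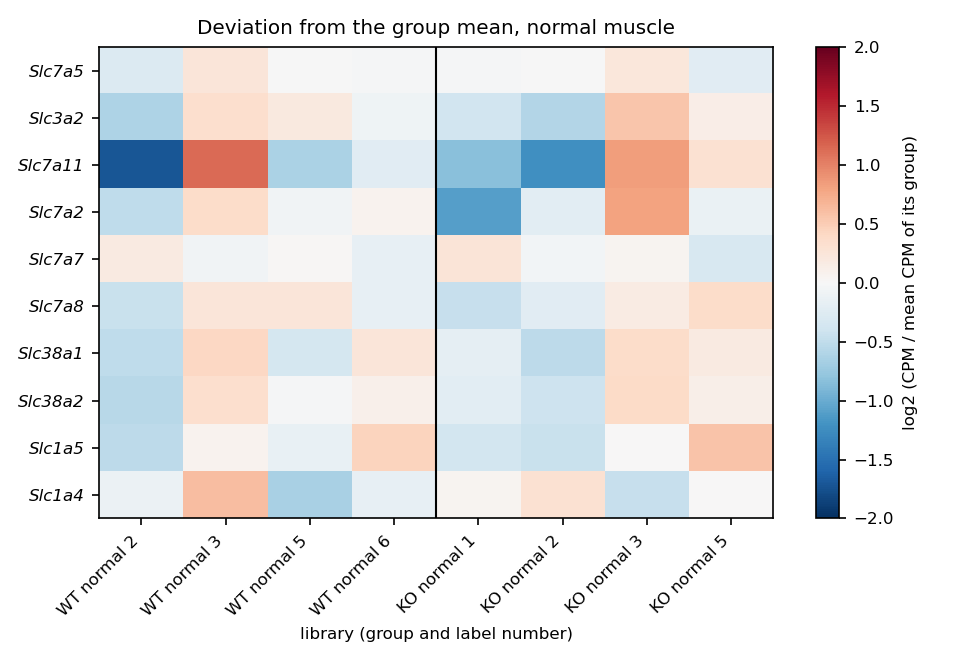
Colours give the log2 ratio of each library's CPM to the mean CPM of its group, for 10 genes (vertical) in the 8 normal libraries (horizontal, by group and number). Libraries numbered 3 are mostly red and those numbered 2 mostly blue in both genotypes, with Slc7a11 spanning the widest range, from -1.71 to 1.13 in WT.

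Other transporters of amino acids at the surface or the lysosome were read from a list of 49 genes, of which 29 were tested. In each genotype 11 (37.9%) rose and 12 (41.4%) fell after CTX, with a median log2 change of -0.32 in WT and -0.18 in KO. These shares lie near those of all genes (33.3% higher in each genotype, 39.4% and 40.2% lower), so the counts are no result about the list. With library totals as the only scaling, 7 rose and 15 fell in WT, and 8 rose and 15 fell in KO, beside 14.2% and 14.1% of all genes higher and 61.1% and 61.5% lower. Slc7a1, which encodes the arginine carrier CAT1, rose from 21.1 ± 8.62 to 79.0 ± 15.1 CPM in WT (log2 1.90, adjusted p = 1.24e-05) and by 1.94 in KO. Slc16a10, which encodes the aromatic amino acid carrier TAT1, rose by 2.30 in WT and 2.31 in KO. The lysosomal histidine and peptide carrier gene Slc15a3 rose by 2.46 and 2.73, and Pqlc2, for the lysosomal exporter of cationic amino acids, by 1.44 and 1.41. These 4 also rose under library totals.

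Slc7a6, which encodes y+LAT2, rose by log2 1.07 in WT and 0.67 in KO, and under library totals the KO value was 0.07 (adjusted p = 0.719). Slc7a4 fell from 5.55 ± 1.61 to 0.391 ± 0.401 CPM in WT and from 5.27 ± 0.448 to 0.161 ± 0.172 CPM in KO. Slc7a13 fell from 2.96 ± 1.25 to 0.0564 ± 0.0801 CPM in WT and from 2.06 ± 1.15 to 0.141 ± 0.153 CPM in KO. Both were near the limit of detection after CTX, so no fold is given. Ctns, the lysosomal cystine exporter gene, fell by 0.43 on the log2 scale in WT and by 0.38 in KO, and Slc15a4 fell by 0.32 and 0.36. Of the other tested SLC1 and SLC38 genes, Slc38a9 fell from 24.4 ± 6.19 to 7.29 ± 2.06 CPM in WT (log2 -1.74) and by 1.47 in KO. Slc1a2, Slc1a3 and Slc38a4, with normal-muscle means of 1.95 to 8.60 CPM, also fell in both genotypes, and Slc1a1 fell in KO only. Slc38a7 and Slc38a10 rose in both, and Slc38a6 was not called.

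For each member the 2 genes with the most similar pattern over the 16 libraries were found by the root mean square difference of log2 CPM, after each gene's own mean was taken off. The nearest to Slc7a5 were Uso1 (0.0973) and Aars (0.111), to Slc3a2 Tuba1c (0.0823) and Ptafr (0.108), and to Slc7a8 Dtx4 (0.200) and Cstb (0.200). Aars encodes the alanyl-tRNA synthetase. For Slc7a11 they were Clec4d (0.323) and Plet1 (0.393), while the median over all genes was 2.86. Clec4d, a C-type lectin receptor gene, was also highest in the normal libraries numbered 3, at 43.0 CPM in WT and 34.2 CPM in KO, against 4.63 to 12.7 CPM in the other 6.

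The gene nearest to Slc7a2 was Irg1, which encodes the enzyme that makes itaconate, at 0.526, and then Tmem171 at 0.649. Irg1 was at 559, 640 and 974 CPM in WT CTX libraries 1, 2 and 4 and at 3647 CPM in library 3, the library in which Slc7a2 was highest too. In KO CTX libraries Irg1 was at 1611, 2309, 803 and 895 CPM, highest in library 2. Slc7a2 was instead highest in KO CTX library 1, at 109 CPM against 55.9 CPM in library 2. The nearest genes were Plaur and Snx18 for Slc38a1, Spcs2 and Pfn1 for Slc7a7, Ddx21 and Med13 for Slc38a2, Csf2ra and Wnk1 for Slc1a5, and Ptpn22 and Bpgm for Slc1a4. The measure counts the difference between normal and CTX libraries that these genes share, and it is a description. It counts high values in single libraries as well. A peak that Irg1 or Clec4d shares with its member is therefore partly fixed by how the gene was picked, and is no separate result.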

How the data were processed

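The deposited table held raw read counts (whole numbers) for each gene symbol. Per the submitters' processing notes, FastQC 0.11.7, cutadapt 1.18, HISAT2 2.1.0, featureCounts (Subread 1.6.2) and mm10 were used. Per the labels' protocols, cDNA was made with SMART-Seq V4. The annotation and the strand and multi-mapping settings are not given in the sources used here.

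Counts were filtered with filterByExpr and scaled with TMM factors in edgeR 4.0.16 (R 4.3.3). One quasi-likelihood fit over all 16 libraries, with 1 coefficient per group, gave 5 comparisons: CTX against normal in WT and in KO, KO against WT in normal and in CTX muscle, and their interaction. The script was tested on simulated data. DESeq2 1.42.0, limma 3.58.1, other scalings and filters, male libraries only, the number as a block and leaving out each library were alternatives. Column names gave each library its sample. Exon lengths came from GENCODE M21 (GRCm38), promoters from RefSeq (GRCm38.p6).

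Pairs of libraries within a group differed by more than sampling noise. Same-numbered normal libraries deviated together (correlations of 0.644, 0.568 and 0.244 over genes, each above 0.1), and the numbers were taken to pair them by that rule. The highest correlation between differently numbered libraries, 0.467, was above that of the pair numbered 5, and the labels do not say what a number marks. CTX libraries were not paired (-0.12 to 0.00). All 10 members were named. From the other lists, the 4 genes of largest change per direction with a mean log2 CPM of at least 5 in the higher group and all tested Slc7 genes were named. The other tested SLC1 and SLC38 genes were named too, whatever their level or call. Members and lists were chosen with earlier results of these data known.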

Additional observations from a re-analysis of the deposited data

Results flagged for a closer look

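Slc7a2, the arginine carrier gene, was at 254.9 CPM in WT CTX library 3, and the next highest of that group of 4 was at 46.4 CPM. The gap was 0.915 of the group's range, above Dixon's 95% critical value for 4 libraries. It was the 1 group of the 40 tested (10 genes in 4 groups) that passed, while chance passes about 1 group in 20.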

How the results depend on the processing

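The count of members called higher after CTX was 7 to 9 in each genotype under all alternatives run, those without the normal libraries numbered 2 or 3 (chosen after seeing the data) included. The 1 member called lower in WT, Slc1a4, became 0 with no low-count filter, with 5 CPM asked in 4 libraries (where it was not tested), with only the groups compared, with voom, with the replicate block and without the normal libraries numbered 3, and was 0 to 1 on leaving out single libraries. The cause was not tested. The replicate block gave Slc1a5 0.72 (adjusted p = 0.0178) in WT and changed no call for genotype. CTX numbers do not pair libraries.

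Genes called for genotype in CTX muscle numbered 43 with DESeq2, 112 with voom, 3 with only the groups compared, 2 with male libraries, 2 with the block, and 1 to 2 on leaving out single libraries. Interaction calls numbered 48, 11, 1 with male libraries, and 0 to 2. Library totals gave summed levels of 271 (KO normal), 704 (WT CTX) and 641 (KO CTX) CPM per kb. Longest transcript lengths, chosen after seeing the data, gave 347 (WT normal), 291 (KO normal), 1191 (WT CTX) and 1013 (KO CTX), since they are shorter than merged exons.

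Values that changed sign were all below the threshold. For Slc1a4 after CTX in KO they were -0.014 (DESeq2), -0.013 (RLE factors), -0.015 (only the groups compared), -0.60 (totals), -0.084 (voom), -0.072 (replicate block), -0.10 (without numbers 3) and -0.12 to 0.15 on leaving out single libraries; Slc1a5 under totals was at -0.28 and -0.29. For genotype in normal muscle, Slc1a4 was at 0.10 (voom), 0.20 (without numbers 3) and -0.36 to 0.081 (single libraries), Slc1a5 at 0.089 (replicate block), 0.14 (block in normal libraries alone) and -0.32 to 0.082, Slc7a7 at -0.029 (block in normal libraries alone), Slc38a1 at -0.31 to 0.016 and Slc7a11 at -1.04 to 0.14. In CTX muscle Slc7a2 was at 0.39 (voom), 0.029 (replicate block) and -1.04 to 0.81, and Slc7a7 at 0.045 (totals) and -0.099 to 0.0081. For the interaction, Slc1a5 was at 0.10 (voom), 0.024 (males), 0.0096 (without numbers 2) and -0.18 to 0.22, Slc7a11 at 0.13, 0.37, 0.0026 and -0.77 to 0.41, Slc38a2 at -0.066 (replicate block) and -0.11 to 0.19, and Slc7a2 at -0.053 to 1.80. Depth limits Slc1a4 (7 to 59 reads) and Slc7a2 in normal muscle (15 to 80 reads).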

Other observations

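Genes that sense or relay amino acid supply at the lysosome were read from a list of 28, of which 26 were tested. After CTX 14 rose and 6 fell in WT, and 13 rose and 6 fell in KO, beside 33.3% of all genes called higher in each and 39.4% (WT) and 40.2% (KO) lower. With library totals as the only scaling 5 (19.2%) rose and 10 (38.5%) fell in WT, and 7 (26.9%) rose and 10 fell in KO. That scaling moves all genes alike, and 14.2% of all genes were then called higher and 61.1% lower in WT, 14.1% and 61.5% in KO. Fnip2, a partner of folliculin, rose from 82.9 ± 64.3 to 814 ± 81.9 CPM in WT (log2 3.30, SE 0.45, edgeR adjusted p = 7.83e-06) and by 3.48 in KO. The leucine sensor genes moved apart in WT: Sesn2 rose by 1.34, from 39.1 ± 2.56 to 98.8 ± 27.6 CPM, and Sesn1 fell from 84.2 ± 17.1 to 17.4 ± 3.68 CPM (log2 -2.27). Sesn1 fell in KO too (log2 -2.20). Sec13 rose by 1.34 in WT and 1.30 in KO, and the Ragulator subunit gene Lamtor3 by 1.19 and 1.41. These 4 genes and Fnip2 kept their direction and call in WT under library totals. Fnip1, the paralog of Fnip2, rose in KO from 75.8 ± 34.6 to 169 ± 8.98 CPM (log2 1.16, adjusted p = 0.00349), and was at 0.57 (adjusted p = 0.0711) under library totals. Sesn2 and Fnip1 were each named by the size of their change in 1 genotype, and no gene of this list was called for the interaction.

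Of 12 genes for mitochondrial amino acid carriers 11 were tested, and 3 rose and 2 fell in WT while 6 rose and 2 fell in KO, beside 33.3% of all genes called higher in each, and 39.4% and 40.2% lower. Under library totals 1 rose and 7 fell in WT, and 1 rose and 4 fell in KO, beside 14.2% and 14.1% of all genes higher and 61.1% and 61.5% lower. Slc25a44, for a carrier of branched-chain amino acids, rose from 36.3 ± 3.19 to 58.9 ± 4.85 CPM in WT (log2 0.70, adjusted p = 3.89e-05) and by 0.73 in KO, and under library totals it was at 0.089 and 0.13, below the threshold. Slc25a12, for the aspartate and glutamate exchanger aralar, rose by 0.45 in WT and 0.46 in KO, and under library totals its values were -0.16 and -0.15. In KO the glutamate carrier gene Slc25a22 rose by 0.49 and Sfxn3, for a serine carrier, by 0.40, and under library totals they were at -0.12 and -0.20, below the threshold. The difference in counts between the genotypes was not tested as such, and no gene of this list was called for the interaction.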
